A study of Danio rerio with 2 samples.

Results

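The transcription factor genes of the heart field, *nkx2.5*, *nkx2.7*, *hand2*, *isl1*, *isl2a* and *isl2b*, were followed in an ATAC-seq comparison of dissected zebrafish hearts at 96 h post-fertilization. ATAC-seq marks open chromatin by letting a transposase cut accessible DNA. The members were chosen by name: a region belonged to them when its list of assigned genes named one of 7 symbols, of which 6 were found. The name *isl1a* was not in the table, and the gene listed there as *isl1* (gene 30147) carries the symbol *isl1a* in current RefSeq naming. The 6 genes held 15 of the 41473 regions. One library came from hearts of heart of stone (*hos*) mutants and 1 from hearts of their siblings, which the genotype label calls wt. The protocol names 60 hearts, and both came from a line with the *myl7*:GFP transgene, a reporter driven by a cardiomyocyte promoter. The labels name neither the *hos* allele nor the genotypes among the siblings. The series title names Smarce1, a protein of the BAF (SWI/SNF) remodelers. The question followed here was whether accessibility at these genes differed between *hos* and sibling hearts.

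Nkx2.5 and Nkx2.7 are homeobox factors of the NK2 class that act together in zebrafish to set and keep ventricular identity of cardiomyocytes. Hand2 is a basic helix-loop-helix factor that zebrafish need to make enough cardiomyocytes from the lateral plate mesoderm. Isl1 and its relatives Isl2a and Isl2b are LIM homeodomain factors. Isl1 marks cells that join the poles of the heart tube and pacemaker cells of the inflow tract, and Isl factors are also well known from motor and sensory neurons.

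Each genotype had a single library, so differences have no replicate check and genotype could not be tested. Intervals given with a fold are exact binomial 95% intervals on estimated tags and cover counting error only. The average signal is the mean read pileup over a region, so that regions of unequal length can be set side by side. Within the regions the *hos* library held an estimated 4748194 tags and the sibling library 4091429, a ratio of 1.16. The median log2 ratio of all regions, on the scale of signal plus 1, was 0.15, a fold of 1.11, and how the libraries were scaled is not given. A difference shared by all regions therefore cannot be told apart from depth, and folds are best read against these 2 values. The label names cardiomyocytes, and of 7 cardiomyocyte markers 5 were matched by name, while *vmhc* and *actc1a* were not. Of these 5, 4 had an open promoter, with signals from 32.7 to 181 in *hos* and from 20.0 to 143 in siblings, the strongest at *myl7*. Promoters of 7 of 10 neural markers were open too, with 21.2 to 171 in *hos* and 14.6 to 99.2 in siblings. Endocardial and endothelial markers had 3 of 6, of which *tie1* was not matched by name, and epicardial markers 3 of 5. Summed over promoters, the signal was 303 in *hos* and 211 in siblings for cardiomyocyte markers, 415 and 339 for neural, 166 and 131 for endocardial, and 81.3 and 106 for epicardial markers. Of the neural sums *elavl3* alone gave 171 and 99.2, and 3 of the 7 neural promoters had a log2 ratio above 0, with a median of -0.09. The part of these cell types in the values that follow was not tested. A larger share of cells of 1 type and more open chromatin per cell cannot be told apart in whole hearts.

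Regions of the heart field genes were mostly higher in the *hos* library, as were regions in general, and *hand2* stood higher at every one of its regions. Of the 15 regions 12 had a log2 ratio above 0, against 62.0% of all regions. Among the 5 promoter regions 3 did, against 77.0% of all promoter regions. The median log2 ratio of the 15 was 0.65, with a lowest value of -0.24 and a highest of 1.42, while over all regions it was 0.15. The counting interval of the fold lay above 1 in 9 of 15 regions, against 24.5% of all regions. It lay below 1 in none of the 15, against 10.3% of all. Read against the fold of the summed tags, 1.16, the interval lay above it in 8 of 15, against 10.5% of all regions. Of the 15 regions 5 were in the table only through a call in *hos*, against 17.5% of all. A call in siblings alone brought in 3, against 18.9% of all. The counting intervals do not allow for this, so these counts are descriptions. At least a 2-fold difference on the scale of signal plus 1 was reached upward in 2 of 15 regions, against 3.32% of all, and downward in none, against 4.83% of all. Over all regions 1378 were at least 2-fold higher and 2005 lower. That split was 804 and 2920 with the median set to 0, and 2151 and 527 with a lowess fit over signal set to 0, while the heart field regions above 0 were 11 and 12 of 15. The 2 regions at least 2-fold higher were the one at the start of *nkx2.5* and the one just upstream of *isl1*. Another, upstream of *hand2*, had a fold of 2.0 of the deposited signals and a log2 ratio of 0.98 after 1 was added to each. These regions had a called interval in the *hos* library only, the library in which they are high. Over all regions called in *hos* only, 1277 of 7247 were at least 2-fold higher, and the median log2 ratio was 0.63. Most of the 15 regions were weaker than the median of all regions in siblings, and most were stronger than it in *hos*. Median signal over the 15 was 42.3 in *hos* and 26.1 in siblings, against 36.4 and 34.2 over all regions.

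**Figure D1:**
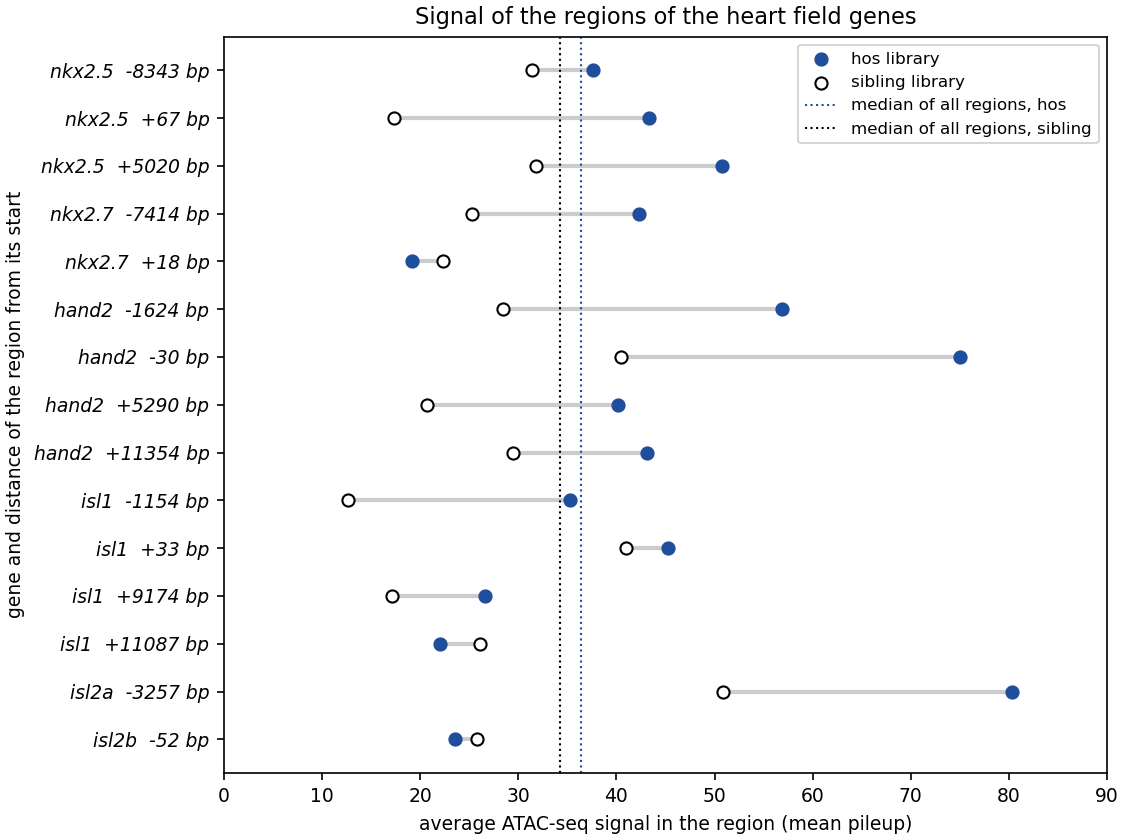
Average ATAC-seq signal (mean pileup, x axis) of the 15 regions of the heart field genes in the *hos* library (filled) and the sibling library (open), with the gene and the distance of each region from its start on the y axis. Dotted lines are the medians of all regions, 36.4 in *hos* and 34.2 in siblings, and the *hos* point lies to the right of the sibling point in 12 of the 15 rows.

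At *hand2* (gene 58150, chromosome 1, minus strand, 38193147 to 38195012 of danRer11) all 4 regions were higher in the *hos* library. The promoter region, centred 30 bp upstream of the start (38194856 to 38195228), had a signal of 75.0 in *hos* and 40.5 in siblings, a fold of 1.85 (1.38 to 2.55). The region 1624 bp upstream (38196483 to 38196789) had 56.9 and 28.4, a fold of 2.0 (1.35 to 3.02), and only the *hos* library had a called interval there. Past the 3′ end, the region 5290 bp from the start (38189586 to 38189859) had 40.2 in *hos* and 20.7 in siblings, a fold of 1.95 (1.19 to 3.31). It too was called in *hos* only. The farthest region, 11354 bp from the start (38183443 to 38183873), had 43.1 in *hos* and 29.5 in siblings, and its fold of 1.46 (1.03 to 2.08) was the lowest of the 4. Relative to the start region, the fold at the other 3 was 1.08 (0.64 to 1.80), 1.05 (0.58 to 1.94) and 0.79 (0.49 to 1.26) times as large. All 3 intervals hold 1, and these quotients do not depend on the scaling between libraries. Summed over the 4 regions *hand2* held 334 tags in *hos* and 188 in siblings, a fold of 1.78 (1.48 to 2.14). Peak signals, the highest pileup in a region, gave folds from 1.61 to 2.09.

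At *nkx2.5* (gene 30696, chromosome 14, plus strand, 24241241 to 24244034), a marker gene of cardiac precursors, the 3 regions were unequal. The region over the start (24241188 to 24241428), inside the gene at 67 bp, had 43.3 in *hos* and 17.3 in siblings, a fold of 2.5 (1.39 to 4.38). Of all regions, 1.28% had a log2 ratio as high. In *hos* this region stood above 61.0% of all regions in signal and in siblings above 4.83%, and only *hos* had a called interval. The region past the 3′ end, 5020 bp from the start (24246005 to 24246517), had 50.8 and 31.8, a fold of 1.60 (1.18 to 2.16), and its peak signal was 76 in *hos* and 37 in siblings. Upstream at 8343 bp (24232779 to 24233018) the values were close, with 37.6 in *hos* and 31.4 in siblings and a fold of 1.20 (0.73 to 1.92). Relative to the start, the fold was 0.64 (0.34 to 1.25) times as large at the 3′ region and 0.48 (0.23 to 1.04) times upstream. Both intervals hold 1, so at this depth the start was not shown to differ from the flanks. The start and 3′ regions are also assigned to *bnip1a*, whose start lies 9757 bp and 4804 bp away from them.

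The paralog *nkx2.7* (gene 30694, chromosome 8, minus strand, 50284859 to 50287942) did not have a strong region at its start. The region at 18 bp inside the gene (50287824 to 50288024) had 19.2 in *hos* and 22.3 in siblings, a fold of 0.86 (0.42 to 1.71) from 17 and 20 tags. It was called in siblings only. The region 7414 bp upstream (50295132 to 50295581) had 42.3 in *hos* and 25.3 in siblings, a fold of 1.67 (1.16 to 2.41), and was called in both. The fold upstream was 1.95 (0.88 to 4.38) times that at the start. The higher *hos* signal at *nkx2.7* was thus seen away from the start, and the interval of the contrast holds 1.

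At *isl1* (gene 30147, chromosome 5, minus strand, 40728579 to 40734064) the start and the sequence just upstream of it differed. The start region, 33 bp inside the gene (40733862 to 40734201), had 45.3 in *hos* and 41.0 in siblings, a fold of 1.10 (0.78 to 1.59), next to the median fold of all regions. The region centred 1154 bp upstream (40735047 to 40735390) had 35.3 in *hos* and 12.6 in siblings, a fold of 2.80 (1.66 to 5.08). It was called in *hos* only, and 0.762% of all regions had a log2 ratio as high. Its signal was 0.779 of that at the start in *hos* and 0.307 in siblings. The fold upstream was 2.54 (1.31 to 5.06) times that at the start. Among the 9 such pairs of a start and another region of the same gene, this was the 1 whose interval leaves out 1, and the intervals are not adjusted for the 9. The upstream region was in the table only through its call in *hos*, the library in which it is high. The interval does not allow for that, so the contrast is a description. Past the 3′ end, the region 9174 bp from the start (40724757 to 40725024) had 26.6 in *hos* and 17.1 in siblings, a fold of 1.55 (0.89 to 2.95). The region at 11087 bp (40722877 to 40723077) had 22.0 and 26.1, a fold of 0.84 (0.45 to 1.66). These 2 regions had called intervals in different libraries, and neither counting interval leaves out 1.

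The Isl2 genes had 1 region each. At *isl2b* (gene 30151, chromosome 7, plus strand, 29992889 to 29996898), linked in zebrafish to second heart field cells, the region 52 bp upstream of the start (29992737 to 29992937) had 23.5 in *hos* and 25.8 in siblings. The fold was 0.91 (0.48 to 1.73), and the region was called in siblings only. At *isl2a* (gene 30157, chromosome 25, minus strand, 32746012 to 32752221) no region lay within 1000 bp of the start. Its only region (32755250 to 32755707), 3257 bp upstream, had 80.3 in *hos* and 50.9 in siblings, a fold of 1.58 (1.23 to 2.04). That region lies 7 bp upstream of the start of *etfa*, a mitochondrial electron transfer flavoprotein subunit gene, so it is the *etfa* promoter that the rule also assigns to *isl2a*. Without the 3 regions shared with *etfa* or *bnip1a*, the median log2 ratio of the heart field regions was 0.57.

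**Figure D2:**
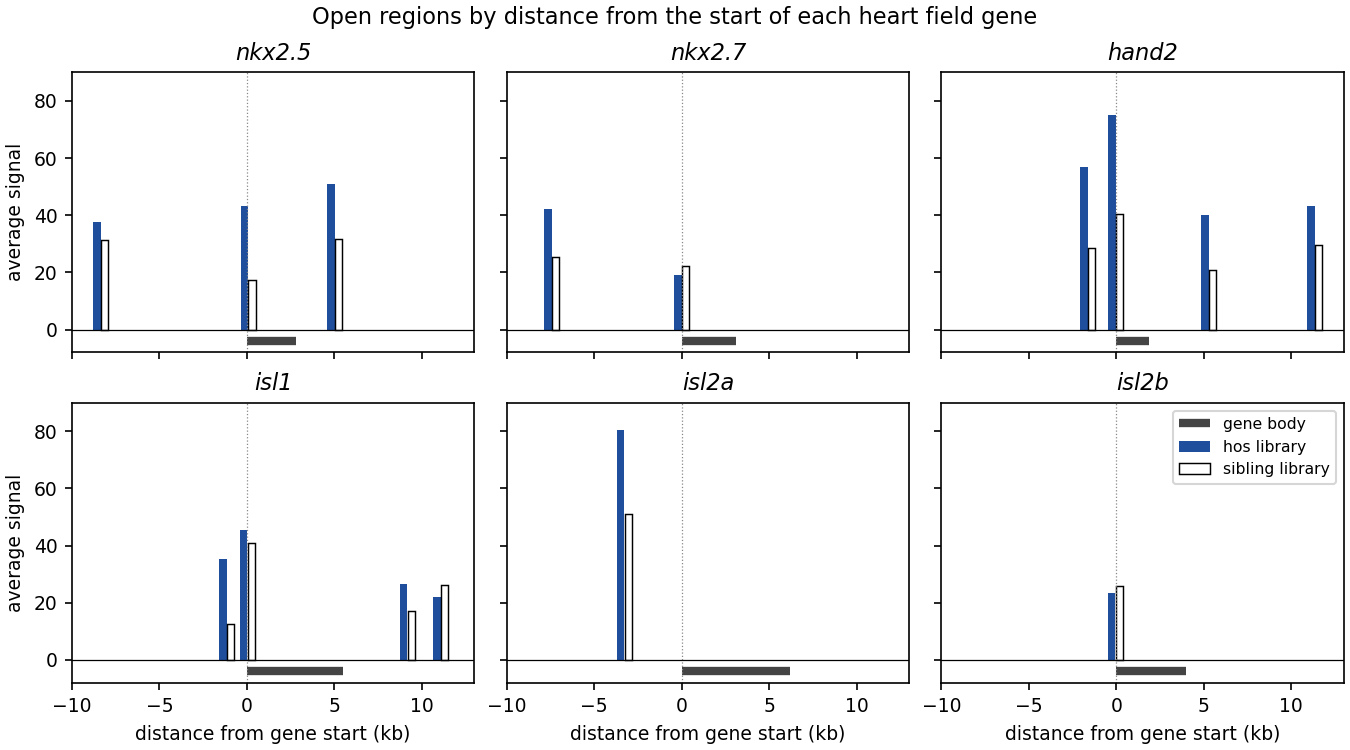
Average signal in the *hos* library (filled bars) and the sibling library (open bars) against distance from the gene start in kb, positive inside and past the gene, with the gene body as a dark line. Bars of a pair are drawn side by side around the centre of the region. All 4 *hand2* pairs are higher in *hos*, while at *isl1* the pair just upstream of the start is unequal (35.3 and 12.6) and the pair at the start is not (45.3 and 41.0).

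Summed over all regions of a gene, the tags in *hos* and siblings were 203 and 125 at *nkx2.5*, a fold of 1.62 (1.29 to 2.05). They were 102 and 71 at *nkx2.7*, a fold of 1.44 (1.05 to 1.97), and 174 and 125 at *isl1*, a fold of 1.39 (1.10 to 1.77). The intervals of *nkx2.5*, *hand2* and *isl2a* thus lie above 1.16, the ratio of all tags, and those of *nkx2.7*, *isl1* and *isl2b* hold it. The sums at *nkx2.5*, *hand2* and *isl1* include regions called in *hos* only, which entered the table through the library in which they are high. Those at *nkx2.7*, *isl1* and *isl2b* include regions called in siblings only. The counting intervals do not allow for this, so the place of a sum above 1.16 is a description.

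The 5 start regions did not stand in the same order in both libraries. In *hos* the order was *hand2* at 75.0, *isl1* at 45.3, *nkx2.5* at 43.3, *isl2b* at 23.5 and *nkx2.7* at 19.2. In this library *hand2* exceeded *isl1* by 1.66 (1.22 to 2.25) and *nkx2.5* exceeded *isl2b* by 1.84 (1.07 to 3.22), whereas *isl1* and *nkx2.5*, and *isl2b* and *nkx2.7*, did not differ beyond counting error. In siblings the order was *isl1* at 41.0, *hand2* at 40.5, *isl2b* at 25.8, *nkx2.7* at 22.3 and *nkx2.5* at 17.3. There no 2 neighbours in the order differed beyond counting error. The start of *nkx2.5* was thus below the other 4 in siblings and above 2 of them in *hos*, and only neighbours in each order were compared. That start was called in *hos* only, and those of *isl2b* and *nkx2.7* in siblings only. The intervals do not allow for this, so the change of order is a description.

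Promoter and distal regions of these genes gave unlike medians. The 5 promoter regions, within 1000 bp of the start, had 3 of 5 log2 ratios above 0, against 77.0% of all promoter regions. Their median was 0.14, from -0.21 at *nkx2.7* to 1.28 at *nkx2.5*. The 10 distal regions had a median of 0.65, from -0.24 to 1.42. Of these, 9 of 10 were above 0, against 14386 of the 26779 regions of the table that are not promoter regions. The 2 definitions differ, since distal here means more than 1000 bp from the start of the member itself. The *isl2a* region, at 0.65, is thus counted as distal, although it lies 7 bp from the start of *etfa* and is a promoter region over the table. Over the table the order was the other way, with 0.25 over 14694 promoter regions of any gene and 0.06 over the 26779 other regions. The 10 distal regions include several of the same gene, and each genotype had 1 library, so regions are not replicates. The ranges of the 5 and the 10 regions overlap, and a difference between promoter and distal regions was not tested.

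**Figure D3:**
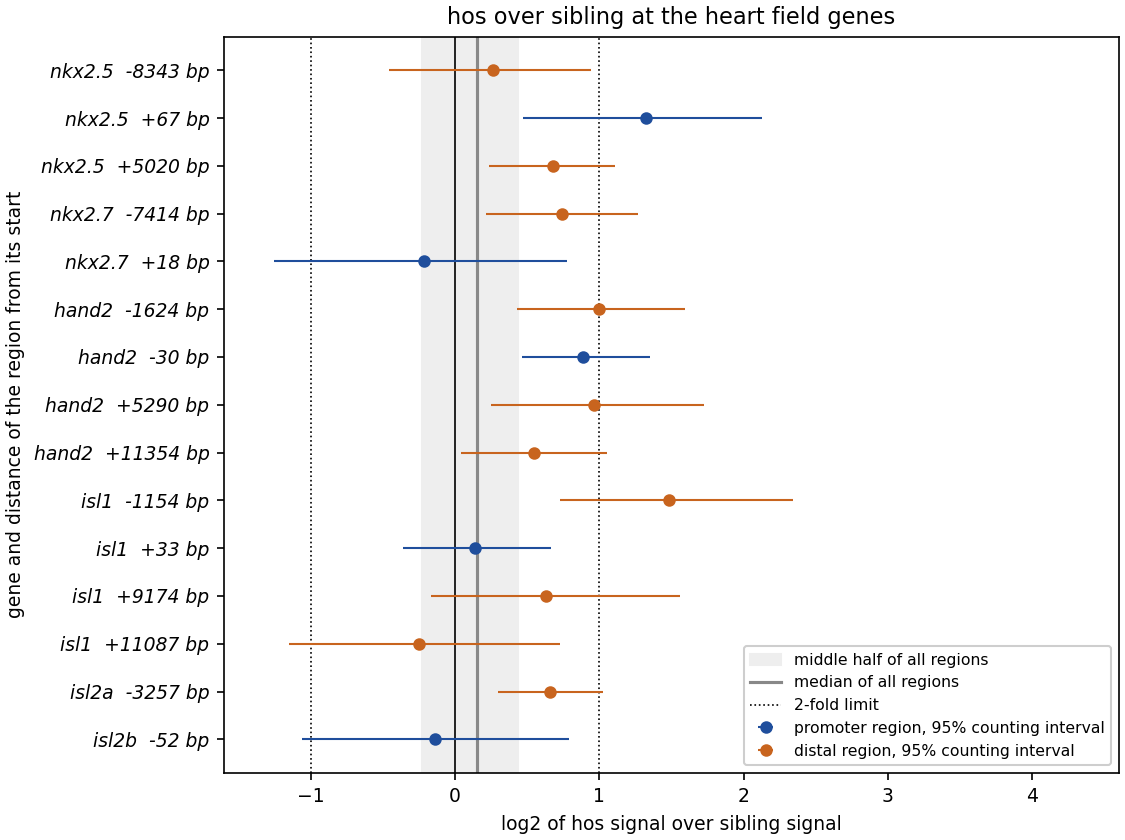
The log2 of *hos* over sibling signal (x axis) at each region of the heart field genes, with exact 95% counting intervals, for promoter regions (blue) and distal regions (orange). The grey band is the range between the quartiles of all regions (-0.23 to 0.44) around their median of 0.15. The points of *nkx2.5* at +67 bp and *isl1* at -1154 bp lie past the 2-fold limit, and *hand2* at -1624 bp lies on it.

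Calls of intervals, made from the same reads, followed the direction of the signal. Of the 15 regions, 7 had a called interval in both libraries, against 63.7% of all regions. In *hos* alone 5 of 15 were called (2 at *hand2*, 1 at *nkx2.5* and 2 at *isl1*), against 17.5% of all. The median log2 ratio of these 5 was 0.98, against 0.63 over all regions called in *hos* alone. In siblings alone 3 of 15 were called (at *nkx2.7*, *isl1* and *isl2b*), against 18.9% of all. The 7 regions called in both libraries had log2 ratios from 0.14 to 0.87, with a median of 0.65, against a median of 0.17 over the 26399 regions called in both. This comparison does not rest on a call that only 1 library passed. Its median of 0.65 is the value of the *isl2a* region, which is the *etfa* promoter. The *nkx2.5* region at 5020 bp, also among the 7, is shared with *bnip1a*. The 3 regions called in siblings alone were the 3 with a log2 ratio below 0, from -0.24 to -0.13. All 3 had a length of 200 bp, the shortest in the table, as did 3.99% of all regions. Over all regions of that length called in siblings alone the median was -0.60, so the 3 were nearer to 0 than most of their kind. None of the 15 overlapped an annotated CpG island, against 10.6% of all regions.

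**Figure D4:**
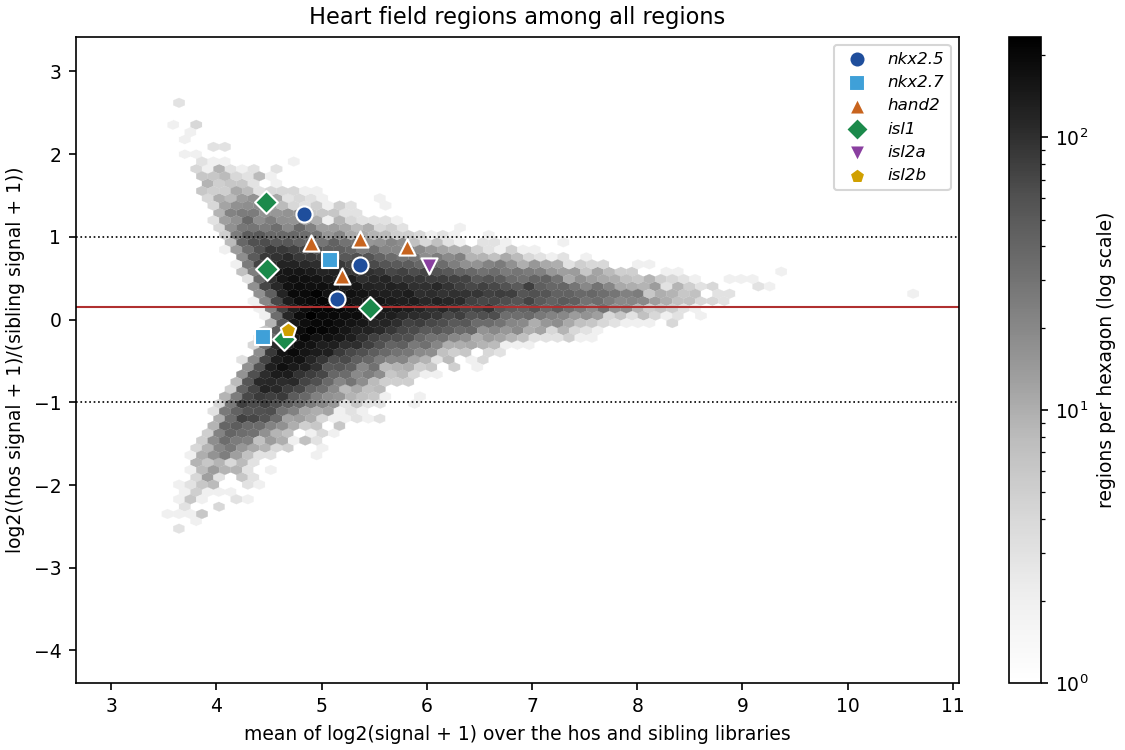
Log2 ratio of *hos* over sibling signal (plus 1) against the mean log2 signal of both libraries for all regions (grey hexagons, darker for more regions on a log scale) and for the heart field regions by gene. The red line is the median of 0.15 and the dotted lines mark a 2-fold difference. Most heart field regions lie in the lower and middle range of signal, where the ratio is widely spread, and 12 of 15 are above 0.

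Signal was also read around the loci, in regions within 60 kb of either end of a gene that are not assigned to it, of which there were 17. At the *hand2* locus the 5 outside regions were all higher in *hos*, with log2 ratios from 0.22 to 0.82. Of all regions 62.0% were above 0. The strongest of the 5 lay at the start of *hmgb2a*, a chromatin protein gene, 23.3 kb from *hand2*. It had 232 in *hos* and 193 in siblings, a fold of 1.20 (1.08 to 1.33). This fold and those of 1.17 and 1.18 at other regions of the 5 were near 1.16, the ratio of all tags. The region with a fold of 1.61 (1.13 to 2.33) was called in *hos* only. A region with no assigned gene 46.9 kb upstream of *hand2* (38241696 to 38242173) had 49.7 and 27.7, a fold of 1.79 (1.29 to 2.51). Not all neighbours went that way. Near *nkx2.5*, a region by *klhl3* 50.7 kb from the start had 9.60 and 30.4, a log2 ratio of -1.57. Upstream of *isl1*, the regions with no assigned gene at 32.8 kb and 39.8 kb had log2 ratios of -0.05 and -0.37. These neighbours were named after their values were seen.

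Other regulators of the same network were mostly higher in *hos* at their promoters, as were promoters in general. A list of 44 partners, cofactors and targets of Nkx2.5, Hand2 and Isl1 had 43 genes in the table and 37 with a promoter region. Their median log2 ratio was 0.45, against 0.25 over all promoter regions, 33 of 37 were above 0, 2 were at least 2-fold higher and none was 2-fold lower. Of all promoter regions 77.0% were above 0, 2.16% were at least 2-fold higher and 0.857% were 2-fold lower. The median of the list was 0.21 with lowess centring, 0.30 with peak signal and 0.26 over all 176 regions of its genes. Over all regions the median was 0.01 with lowess centring, 0.13 with peak signal and 0.15 in the main setting. For all promoter regions the medians with lowess centring and peak signal are not given here. The highest was *nppa*, a natriuretic peptide gene and a target of cardiac factors, at 1.46, whose region is also assigned to *nppb*. The *nppa* region was called in *hos* only, the library in which it is high, with 48.7 in *hos* and 17.0 in siblings. Next was *gata5*, a zinc finger factor that acts with Nkx2.5 and upstream of it in zebrafish, at 1.01, with 108 in *hos* and 53.2 in siblings. The T-box gene *tbx20* at 0.97 and *ldb2b*, a gene of the LIM domain binding family that partners Isl factors, at 0.96 came close. At *ldb2b* the signal was 116 in *hos* and 59.3 in siblings, a fold of 1.96 (1.63 to 2.36). Both libraries had a called interval at *ldb2b*. The other Ldb genes, *ldb1a*, *ldb1b* and *ldb2a*, had folds of 1.72 (1.28 to 2.35), 1.37 (1.15 to 1.65) and 1.40 (1.10 to 1.76). The lowest were *six1a*, with 17.0 in *hos* and 32.5 in siblings, and *tbx5b*, with 24.1 and 29.0. Both were called in siblings only.

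**Figure D5:**
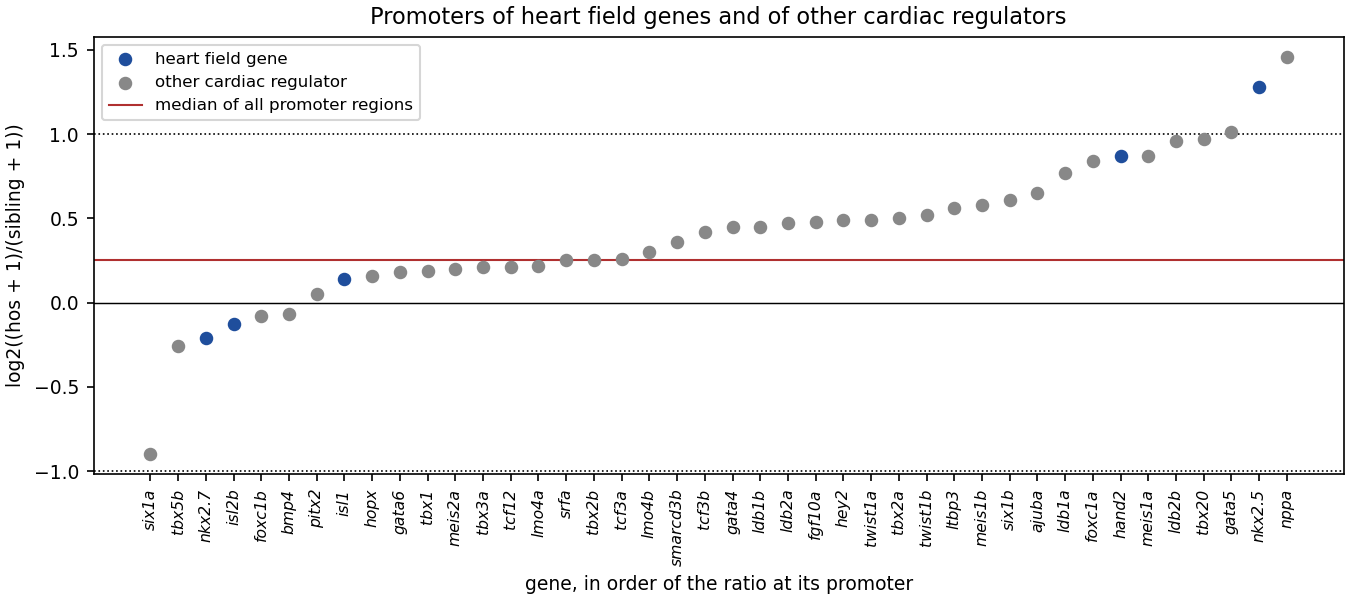
Log2 ratio of *hos* over sibling signal (plus 1) at the promoter region of each heart field gene (blue) and of 37 other cardiac regulators (grey), in order of the ratio. The red line is the median of all promoter regions, 0.25, and dotted lines mark a 2-fold difference. Of the heart field genes, *nkx2.5* and *hand2* lie near the upper end, and *isl1*, *isl2b* and *nkx2.7* lie below the red line.

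Among genes related in sequence class, promoters were weak. Of 22 Nkx2, Nkx3, Isl and Lhx genes, 17 were in the table and 7 had a promoter region, with signals from 12.3 to 41.2 in *hos* and 14.6 to 39.6 in siblings. Their median log2 ratio was 0.41, 5 of 7 were above 0, against the 77.0% of all promoter regions, none was 2-fold higher and 1 was 2-fold lower. The lowest were *lhx8a*, with 12.3 in *hos* and 27.8 in siblings, and *nkx3.3*, with 20.4 and 24.9. Both were called in siblings only. The highest were *lhx3*, a motor neuron and pituitary factor gene, with 27.6 and 14.6, and *nkx3.2*, with 40.7 and 22.8. Both were called in *hos* only.

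The promoter whose signals in the 2 libraries were most like those of *nkx2.5* was *commd7*, with 42.1 in *hos* and 17.3 in siblings, followed by *mturn* and *bnc2*. Likeness was the distance in log2 signal over 2 libraries, and 6 of 11903 promoters lay within 0.1 of *nkx2.5*. For *hand2* they were *polr2m*, *rbm5* and *slc12a5b*, with 26 within that distance. For *nkx2.7* they were *pycard*, *cmya5* and *dok1a*, and for *isl2b* *wnk2*, *tpmt.2* and *mid2*, with 2 and 37 within it. For *isl1* they were *st6galnac6*, *vopp1* and *ogt.1*, and 188 promoters lay within it, so that the pattern at its start was a common one.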

How the data were processed

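Hearts of *hos* mutants and siblings were profiled with 1 ATAC-seq library each, and groups came from the genotype labels. The submitters' notes on processing name MACS2 2.1.0 and danRer11. Aligner, duplicate handling, transposase shift and scaling were not given in the sources used here. Called intervals were merged by the authors into regions, and they deposited, per library, an average and a peak signal, a call mark (1 or 0), a tag score (larger average signal times length over 224) and a gene table with mean peak signal per gene, which matched the mean over regions. The authors' own ratio columns, a log2 ratio and a shrunken fold change, were not used.

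Log2((*hos* + 1)/(sibling + 1)) was computed without rescaling. Promoter regions lay within 1000 bp of a start. Tags were estimated from signal and length. Intervals are exact binomial at 95%, conditional on the sum of tags, which treats tags as independent molecules. The quotient of 2 folds has an exact conditional interval. The calculations were tested on simulated data. Gene names were matched on the file's symbols and on RefSeq gene IDs, and coordinates are as deposited. Of the neighbouring regions counted, 1 is not described here.

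All members with every region were described, with the 2 highest and 2 lowest promoters of each further list and the 3 promoters nearest in log2 signal to a member. The other Ldb genes and *tbx20* were named after their values were seen. Members and lists were chosen with earlier results of these data known. Alternatives were pseudocounts of 0.1 and 5, peak signal, median and lowess (span 0.2) centring, a signal floor (39.3), a 1.5-fold limit, promoters within 2000 bp, the strongest promoter region and single-gene regions. No sequence is printed, because no genome of this build was used here, and motifs were not searched. Software was matplotlib 3.10.9, scipy 1.17.1, pandas 2.3.3, numpy 2.4.6 and statsmodels 0.14.6 under Python 3.11.15.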

Additional observations from a re-analysis of the deposited data

How the results depend on the processing

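The median log2 ratio of the heart field regions, 0.65, ran from 0.49 with median centring to 0.72 with a signal floor, and was 0.69 without the regions of the minimum length, a choice made after seeing the data. The count of regions at least 2-fold higher, 2, became 4 with peak signal, 1 with the signal floor, 9 at a 1.5-fold limit, and 3 with lowess centring or with no pseudocount, which was also chosen after seeing the data. No region was 2-fold lower under any of these settings, nor 1.5-fold lower at that limit. Median centring subtracts 0.15 from each log2 ratio and turned the start of *isl1* from 0.14 to -0.01. Lowess centring gave -0.02 there and turned the start of *nkx2.7* from -0.21 to 0.33. The starts of *hand2* (0.66 to 0.89) and *nkx2.5* (1.12 to 1.32) kept their direction. The median of the cardiac regulator list, 0.45, was 0.21 with lowess centring, 0.30 with peak signal, 0.29 with median centring and 0.26 over all regions of its genes, and the cause of the lowess and peak values was not tested. The strongest region within the promoter limit was the nearest one for each of the 5 genes. Motif counts in promoters were planned and not run. No paired analysis was possible because each genotype had 1 library. The regions rest on an estimated 17 to 164 tags in *hos* and 19 to 104 in siblings, which sets the width of the intervals.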
